A study of Mus musculus with 8 samples.

Results

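Hand1 (ENSMUSG00000037335) and Hand2 (ENSMUSG00000038193) are 2 of the 13540 genes with expression values at 4 stages of mouse heart muscle differentiation in culture, and both were found in the table by their symbols. They are paralogs that encode transcription factors of the heart and are described as a pair because their timing differs, so that difference is described here and not tested. RNA came from embryonic stem cells of the 129/Ola strain at day 0 (ESC), mesodermal cells at day 4 (MES), cardiac precursors at day 5.3 (CP) and cardiomyocytes at day 10 (CM), with 2 libraries per stage and 8 in all. The cells were grown as embryoid bodies without serum, then as new aggregates with human VEGF, BMP4 and Activin A, and last in plates with FGF10, basic FGF and VEGF. The labels give no genotype beyond the strain and no sort of the cultures, and stage and factor treatment cannot be told apart. Below, 4 values in a row follow the order of the stages from ESC to CM.

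HAND1 and HAND2 are basic helix-loop-helix (bHLH) transcription factors of the TWIST family. Such factors bind short DNA motifs called E-boxes as dimers, usually with widely expressed E proteins, while Id proteins, which lack the DNA-binding basic region, tie up E proteins and keep them from DNA. In the embryo HAND1 is known for its role in trophoblast giant cells, extraembryonic and lateral plate mesoderm and the future left ventricle. HAND2 is known for its role in the second heart field and right ventricle, and also in limb buds, pharyngeal arches and sympathetic neurons.

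The table gives 1 value per stage in RPKM (reads per kilobase of gene model and per 1000000 reads), so no spread between the libraries of a stage, no SD and no test could be had. A difference of at least 2-fold on the log2(RPKM + 1) scale is used as a descriptive limit. This scale understates differences of genes with low values. Depth, read from the steps between low values, came to 75.3, 62.0, 64.8 and 88.5 times 1000000 reads, and the reads behind both genes could be recovered. The 95% Poisson intervals given with them cover counting error only. In bulk RNA, a smaller share of cells that express a gene and less RNA per expressing cell cannot be told apart. The labels were checked against stage markers. All 5 stem cell markers were highest in ESC (Pou5f1, a pluripotency factor, at 669.96 RPKM), all 5 mesoderm markers in MES (T, a primitive streak factor, at 53.2 RPKM) and all 6 cardiomyocyte markers in CM (Actc1, cardiac actin, at 3917 RPKM). Of the 5 cardiac precursor markers, 2 were highest in CP and 3 in CM, among the latter Nkx2-5, a cardiac homeobox factor (CP 70.1 RPKM, CM 178 RPKM).

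The 2 genes are close relatives, which matters for short reads that could fit either one. Their coding sequences are most alike in a stretch of 184 bases in the first of 2 exons, at chr11:57831281-57831464 (minus strand) for Hand1 and chr8:57322244-57322427 (plus strand) for Hand2 in GRCm38. It was found by script in GENCODE M21 transcripts and is shown here because it is the part most open to mix-up. The capitals mark the 28 bases that differ.
Hand1: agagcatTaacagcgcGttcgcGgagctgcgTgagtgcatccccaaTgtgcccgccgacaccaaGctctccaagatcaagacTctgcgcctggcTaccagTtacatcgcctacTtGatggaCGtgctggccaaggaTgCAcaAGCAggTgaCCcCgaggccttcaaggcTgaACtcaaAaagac
Hand2: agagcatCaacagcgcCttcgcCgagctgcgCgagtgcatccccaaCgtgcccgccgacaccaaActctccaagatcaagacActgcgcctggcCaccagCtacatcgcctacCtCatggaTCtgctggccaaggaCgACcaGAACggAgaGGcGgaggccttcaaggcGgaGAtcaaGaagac
In it 156 of 184 bases (84.8%) were identical, and the longest unbroken identical run was 17 bases. No 32-base word of the longest Hand1 transcript occurred in a Hand2 transcript, and none of Hand2 in Hand1. A read of that length therefore has differences to tell the paralogs apart, though no source used here gives the read length. The files were made on mm9, so these coordinates are for orientation and no value was read by them.

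Hand2 also has a partner on the opposite strand, the long noncoding RNA gene Hand2os1, called Upperhand. In RefSeq (GRCm38.p6), the Hand2os1 end nearest to Hand2 lies 124 bases before the Hand2 start, inside the 250 bases upstream that are shown here because both genes begin in or next to them (chr8:57320733-57320982, plus strand).
Hand2 upstream: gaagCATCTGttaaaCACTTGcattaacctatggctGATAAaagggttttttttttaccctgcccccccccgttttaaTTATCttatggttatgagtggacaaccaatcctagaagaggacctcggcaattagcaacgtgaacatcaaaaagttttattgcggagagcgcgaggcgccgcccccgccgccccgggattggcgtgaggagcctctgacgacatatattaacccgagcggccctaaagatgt
Capitals mark matches on either strand to the E-box CANNTG, the bHLH motif (2 matches), to GATAA, the core of GATA factor motifs (2 matches), and to AAGTG, the core of NK2 homeobox motifs (1 match, inside an E-box match). Among 32851 upstream windows of the same length in the RefSeq table, 66.2% held the first motif, 22.6% the second and 40.7% the third. At least 2 GATAA matches were present in 4.28% of windows. These are matches of letters and say nothing of binding. In GENCODE M21, 461 of 2351 exon bases of Hand2 (19.6%) lie under exons of Hand2os1 on the other strand. Hand2os1 was not analysed here and the use of strand in counting is not given, so reads of the 2 genes over these bases cannot be told apart.

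Hand1 was highest in mesoderm and was lower at each later stage. Its level was 1.98 RPKM in ESC, 172 RPKM in MES, 65.8 RPKM in CP and 30.1 RPKM in CM. These values rested on 297, 21209, 8499 and 5324 reads, and their 95% Poisson intervals were 1.76 to 2.21, 169 to 174, 64.4 to 67.2 and 29.3 to 31.0 RPKM. No 2 of these intervals overlapped, so the order of the 4 stages (MES, CP, CM, ESC) exceeds counting error, while the spread between cultures is unknown. In MES it ranked 149th of all genes, against 9989th in ESC, 576th in CP and 1689th in CM. The 65.8 RPKM of CP amounted to 38.3% of the MES level and the 30.1 RPKM of CM to 17.6%.

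Hand2 was highest in cardiac precursors, 1 stage later. Its level was 0.0653 RPKM in ESC, 30.8 RPKM in MES, 199 RPKM in CP and 39.5 RPKM in CM. The ESC value came from 11 reads (95% Poisson interval 0.0326 to 0.117 RPKM), and the other 3 from 4259, 28809 and 7809 reads, with intervals of 29.8 to 31.7, 197 to 201 and 38.6 to 40.4 RPKM. The order was CP, CM, MES and ESC, again with no overlap of counting intervals between neighbours. The rank among all genes went from 13195th in ESC to 1888th in MES, 107th in CP and 1191st in CM. MES stood at 15.5% of the CP level and CM at 19.8%. A count of 3 reads would equal 0.0178 RPKM for Hand2 in ESC, so the stem cell value lay above that floor, and 2.56% of the genes in the table were at or below it.

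**Figure D1:**
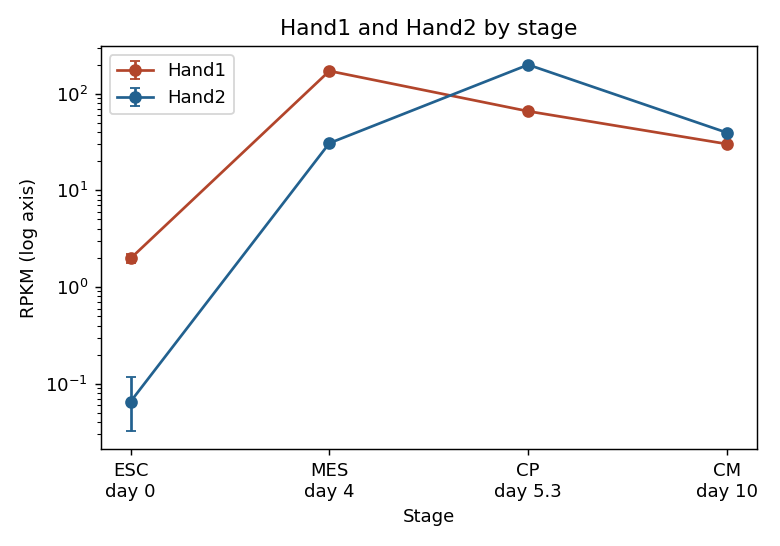
RPKM of Hand1 and Hand2 (log axis) at the 4 stages, 1 deposited value per stage, with bars for the 95% Poisson counting interval. Hand1 is highest in MES at 172 RPKM and Hand2 in CP at 199 RPKM, and the lines cross between these stages.

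From ESC to MES both genes were higher, Hand1 by 5.86 and Hand2 by 4.90 on the log2(RPKM + 1) scale, where 11.1% of all genes were at least 2-fold higher and the median of all genes was 0.05. Only 3 genes had a larger difference than Hand1 in this comparison and 15 a larger one than Hand2. Without a pseudocount the ratios were 86.8-fold for Hand1 (95% counting interval 77.4 to 97.7) and 471-fold for Hand2 (263 to 944). Hand2 thus differed by more as a ratio and by less on the scale with a pseudocount, since its ESC value is far below 1 RPKM. A ranking of the 2 genes by this step therefore depends on the scale.

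The step from MES (day 4) to CP (day 5.3) is where the paralogs went opposite ways. Hand1 was lower in CP, with a log2 difference of -1.37, where 3.91% of all genes were at least 2-fold lower and 250 genes had a larger drop. Hand2 was higher by 2.65, where 8.91% of all genes were at least 2-fold higher and 199 genes had a larger difference. In ratios Hand1 stood 2.61-fold lower (2.54 to 2.68) and Hand2 6.47-fold higher (6.26 to 6.68). From CP to CM both were lower, Hand1 by -1.10 and Hand2 by -2.30, where 12.8% of genes were at least 2-fold lower and the median of all genes was -0.15. The ratios were 2.18-fold for Hand1 (2.11 to 2.26) and 5.04-fold for Hand2 (4.92 to 5.17). With a minimum of 4-fold, all 3 steps of Hand2 remained past the limit and 1 of 3 steps of Hand1, that from ESC to MES. Adjacent comparisons share a stage value, so they are not independent of each other.

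Seen over the whole course, CM still held more of both transcripts than ESC, 15.3-fold for Hand1 (13.6 to 17.2) and 604-fold for Hand2 (337 to 1211). Between MES and CM, Hand1 was 5.69-fold lower (5.52 to 5.87), while Hand2 stood at 30.8 and 39.5 RPKM, a ratio of 1.28 (1.24 to 1.33) that is under the 2-fold limit. Hand2 in cardiomyocytes was thus near its mesoderm level in number, after a value in between that was higher than both.

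The balance between the paralogs changed sides. RPKM is per length, so the 2 genes can be set side by side, with the provision that the ratio depends on the gene model lengths used by the authors. The recovered reads and depth imply models of 1995 bases for Hand1 and 2235 bases for Hand2, against exon lengths of 1997 and 2351 bases in GENCODE M21. Hand1 exceeded Hand2 by 30.2-fold in ESC (95% counting interval 16.7 to 61.3) and by 5.58-fold in MES (5.40 to 5.77). Hand2 exceeded Hand1 by 3.03-fold in CP (2.95 to 3.10) and by 1.31-fold in CM (1.26 to 1.36). Of the summed HAND level, Hand2 made up 3.20% and 15.2% in the first 2 stages and 75.2% and 56.7% in the last 2. The sum itself was 2.04, 202, 265 and 69.6 RPKM. It differed far less between MES and CP than either gene did, with CP the higher of the 2.

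A second question is whether such timing sets this pair apart from other related factors of heart and mesoderm. A list of 15 other pairs had values for both genes. The pair of Hand1 and Hand2 differed by 1.57 (root mean square difference of centred log2(RPKM + 1) profiles over the 4 stages), against a median of 0.97 in the other pairs, and was the 6th most unlike of 16. Tbx2 and Tbx3, T-box repressors, were further apart at 2.87, as were Nkx2-5 and Nkx2-6 at 2.31, Gata4 and Gata5 at 2.19, Mef2a and Mef2c at 1.76 and Mesp1 and Mesp2 at 1.61. Among the 15 pairs, 8 had their highest values in different stages and 7 in the same stage, and 3 had a step where one gene was at least 2-fold higher and the other at least 2-fold lower. Opposite timing of paralogs was therefore seen in other pairs too. Twist1 and Twist2, also of the TWIST family, were highest in the same stages as Hand1 and Hand2, respectively. Twist1 stood at 1.95, 53.0, 29.6 and 18.7 RPKM and Twist2 at 0.759, 2.55, 8.04 and 4.27 RPKM.

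**Figure D2:**
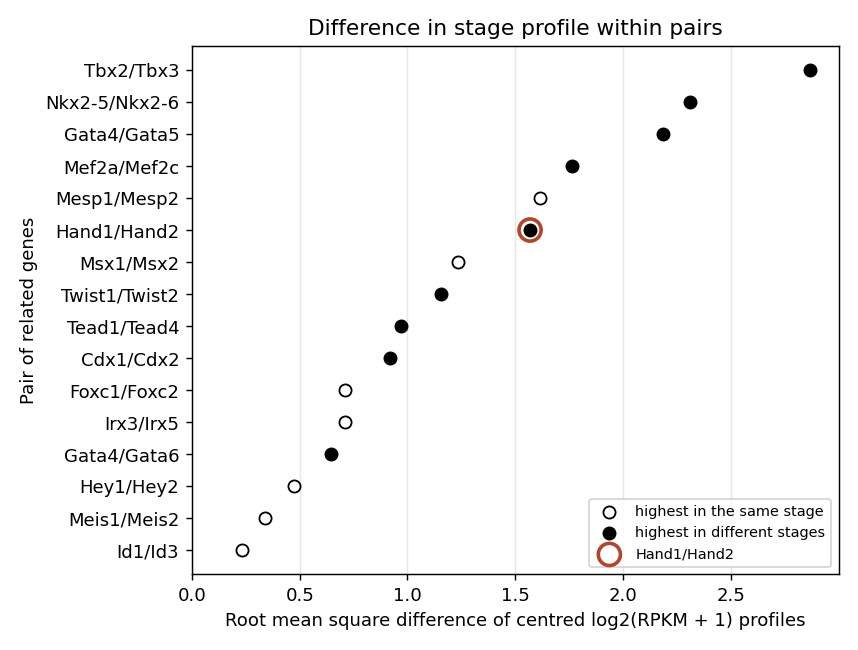
Root mean square difference between the centred log2(RPKM + 1) stage profiles of 2 related genes (x axis), for 16 pairs (y axis); filled points are pairs highest in different stages, open points pairs highest in the same stage. Hand1/Hand2, ringed, stands at 1.57 and is the 6th from the top.

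The 3 steps of Hand1 (at least 2-fold higher, lower and lower) were shared by 50 other genes, and the pattern holds 0.377% of all genes. The steps of Hand2 (higher, higher and lower) were shared by 56 others, with 0.421% of all genes. Among 141 distinct genes on the lists and marker sets used here, 5 had the Hand1 pattern. They are named after their values were seen: Foxc2 and Foxf1a (forkhead factors), Msx1 (a homeobox factor and BMP target), Six2 and Tbx3. The Hand2 pattern was found in 7, namely Bmp5, Isl1, Mef2c, Plac1, Smarcd3 (a cardiac subunit of the BAF chromatin remodelling complex), Tal1 and Tcf21.

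The genes with the profile most like Hand1 over the 4 stage values, by the smallest root mean square difference, were Foxc2 (0.43), Asb4 (0.43), Cdh11 (0.45), Kdr (0.47), Prdm6 (0.48) and Pdgfra (0.57). Foxc2 stood at 0.0919, 48.4, 20.4 and 4.23 RPKM. Cdh11, a mesenchymal cadherin, stood at 0.340, 37.0, 12.6 and 8.57 RPKM. Kdr, the VEGF receptor that marks early mesoderm, stood at 0.365, 63.2, 53.4 and 21.8 RPKM. Pdgfra, the PDGF receptor of paraxial and cardiac mesoderm, was the exception in its highest stage, with 54.4 RPKM in CP against 48.3 RPKM a stage earlier. The list rests on 4 points per gene and depends on the measure. With a pseudocount of 0.1, 1 of the 6 genes remained, Cdh11, and with Pearson's r none did.

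Nearest to Hand2 were Capn6 (0.60), Mir1903 (0.68), Gata6 (0.68), Isl1 (0.76), Fbn2 (0.84) and Rbm24 (0.89). Gata6, a zinc finger factor of heart and endoderm, stood at 0.152, 28.7, 99.7 and 75.9 RPKM. Isl1, the LIM homeobox factor of the second heart field, stood at 0.142, 12.8, 49.9 and 14.3 RPKM. Rbm24, a splicing regulator of muscle, stood at 0.0867, 13.9, 76.1 and 71.6 RPKM. All 80 bases of Mir1903 lie in exons of Nrp1 on the same strand in GENCODE M21, so its reads cannot be told from those of Nrp1, which stood at 0.970, 57.4, 66.7 and 49.7 RPKM. With a pseudocount of 0.1, 5 of these 6 genes remained and with Pearson's r 2. Of 12129 genes ranked, Hand2 was the 440th nearest to Hand1 and Hand1 the 77th nearest to Hand2.

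**Figure D3:**
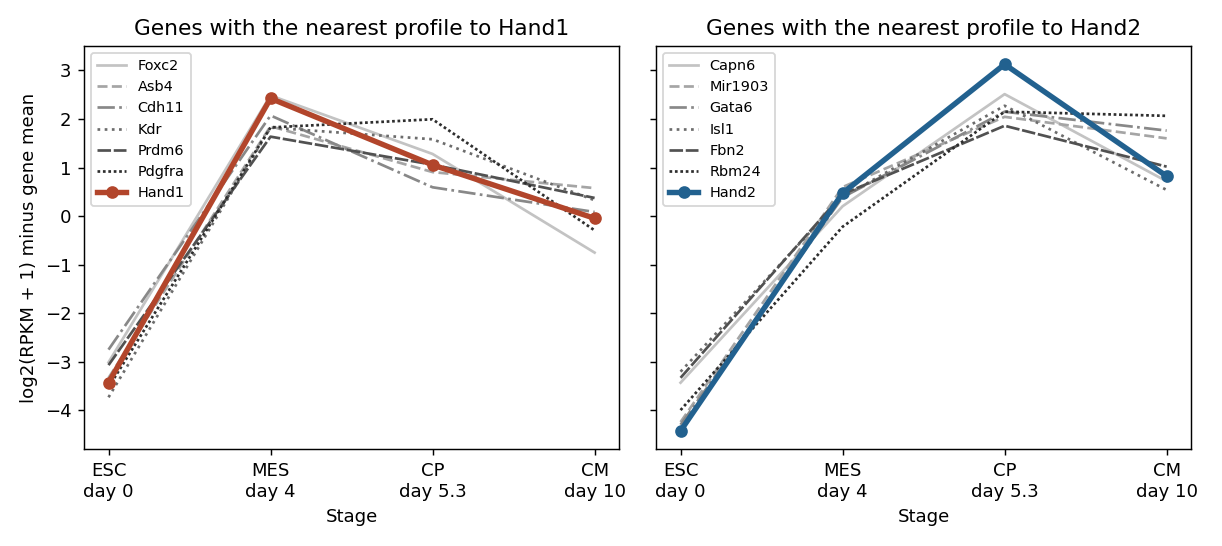
log2(RPKM + 1) minus the gene's own mean at the 4 stages for Hand1 (left) and Hand2 (right), thick coloured lines, with the 6 genes of nearest profile as grey lines. Most genes near Hand1 are highest in MES, except Pdgfra (54.4 RPKM in CP), and those near Hand2 are highest in CP.

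HAND proteins act in pairs with other bHLH proteins, so the RNA of their partners was compared next. All 3 E protein genes were highest in MES and all 4 Id genes in CP, the highest stages of Hand1 and Hand2, respectively. Of all genes with at least a 2-fold range, 19.2% were highest in MES and 15.2% in CP. Such a range was present in 2 of the 3 E protein genes and 3 of the 4 Id genes. Tcf3 stood at 54.7, 102, 89.1 and 21.01 RPKM, Tcf12 at 8.40, 32.6, 29.9 and 14.7 RPKM, and Tcf4 at 4.03, 7.73, 5.93 and 5.68 RPKM. Of the 3 genes, 1 was at least 2-fold higher from ESC to MES (Tcf12), 0 differed by that much from MES to CP, and 1 was lower from CP to CM (Tcf3). Over all genes 11.1% were at least 2-fold higher in the first of these steps, 8.91% higher and 3.91% lower in the next, and 12.8% lower in the last. The E protein sum was thus of similar size in MES and CP, at 142 and 125 RPKM, while the larger share of the HAND sum passed from Hand1 to Hand2. Id1 went from 121 RPKM in MES to 177 RPKM in CP, Id2 from 16.0 to 90.2 RPKM, Id3 from 107 to 116 RPKM and Id4 from 1.64 to 3.29 RPKM. Only Id2 of the 4 was at least 2-fold higher in this step (8.91% of all genes), and 3 of 4, all but Id4, were lower from CP to CM (12.8% of all genes).

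Summed HAND transcripts per summed E protein transcript came to 0.0304, 1.42, 2.12 and 1.68. The same HAND sum per Id sum was 0.0185, 0.827, 0.685 and 0.497. HAND transcripts thus outnumbered E protein transcripts per length from MES on and stayed below Id transcripts at every stage. These are levels of RNA and not of protein or dimers.

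**Figure D4:**
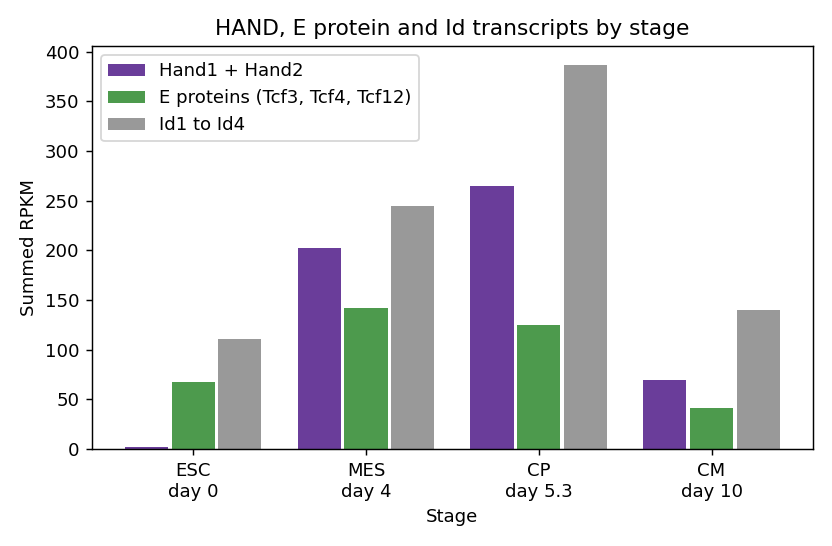
Summed RPKM (y axis, from 0) of Hand1 and Hand2, of 3 E protein genes and of 4 Id genes at the 4 stages, 1 deposited value per gene and stage. The HAND sum stands at 2.04, 202, 265 and 69.6 RPKM, above the E protein sum from MES on and below the Id sum in each stage.

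Other bHLH factors of mesoderm were on a list of 18, of which 13 had values. Of these, 8 were at least 2-fold higher and 3 lower from ESC to MES, 4 higher and 4 lower from MES to CP, and 2 higher and 4 lower from CP to CM. The shares of all genes that were higher and lower were 11.1% and 11.2%, 8.91% and 3.91%, and 11.3% and 12.8% in these 3 steps. Mesp1, which marks the earliest cardiac mesoderm, went from 148 RPKM (MES) to 0.278 RPKM (CP), and Mesp2 from 14.3 to 0.0797 RPKM. Unlike them, Hand1 still had 38.3% of its MES level in CP. Tal1 and Lyl1, factors of blood and endothelial precursors, were highest in CP at 21.9 and 17.1 RPKM. Tcf15 was highest in ESC at 61.2 RPKM, then 22.1, 4.41 and 0.899 RPKM. Per Twist1 transcript there were 1.02, 3.23, 2.22 and 1.61 Hand1 transcripts, per length.

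Further proteins are known to bind HAND factors or to steer their choice of dimer. Of 9 such genes, 2 were at least 2-fold higher and 1 lower from ESC to MES (Gata4 and Mef2c against Sox15), 2 higher and 0 lower from MES to CP (Mef2c and Phox2a), and 0 higher and 1 lower from CP to CM (Mef2c). With 11.1% of all genes higher and 11.2% lower in the first step, 8.91% and 3.91% in the next and 11.3% and 12.8% in the last, counts this small in 9 genes are near the background. Ppp2r5d, the phosphatase 2A subunit that binds HAND1 and HAND2, stood at 44.3, 73.2, 49.9 and 30.5 RPKM, and Prkaca, a catalytic subunit of protein kinase A, at 24.0, 40.8, 45.5 and 49.4 RPKM. Ep300, a histone acetyltransferase, stood at 24.4, 24.4, 24.3 and 22.8 RPKM. Mdfi, an inhibitor of myogenic bHLH factors, stood at 4.81, 9.92, 18.0 and 23.5 RPKM. None of these 4 differed by 2-fold in any single step, while both HAND genes did in all 3. Smaller steps could still add up. From ESC to CM, Mdfi and Prkaca were at least 2-fold higher, while Ppp2r5d and Ep300 stayed under the limit. Of the 9 genes, 6 were at least 2-fold higher and 1 was lower over this span. The median difference was 1.09, against -0.03 over all genes.

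Signals and factors known to act above the HAND genes had 16 of 18 members with values. From ESC to MES, 11 were at least 2-fold higher and 1 was lower, where 11.1% and 11.2% of all genes were. The median difference was 1.83 (2.82 with a pseudocount of 0.1), against 0.05 over all genes. From MES to CP, 6 were higher and 2 lower (all genes 8.91% and 3.91%), with a median of 0.56 against -0.03. From CP to CM, 2 were higher and 3 lower (all genes 11.3% and 12.8%), with a median of -0.06 against -0.15. Gata4, a zinc finger factor that binds a Hand2 enhancer, differed by less than 2-fold from MES on, at 50.7, 53.2 and 59.3 RPKM. Foxf1a, a forkhead factor of lateral plate mesoderm, was at least 2-fold lower in the same steps as Hand1, with 89.9, 10.4 and 0.191 RPKM from MES on. Bmp4, the ligand also added to the culture, stood at 20.97, 42.8, 61.8 and 66.9 RPKM and Bmp7 at 0.677, 24.4, 37.6 and 66.7 RPKM. Nkx2-5 differed from both HAND genes in being highest in CM.

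Genes of the territories where each HAND factor is known were read by their highest stage. Over all 8556 genes with at least a 2-fold range, the highest stage was ESC for 33.3%, MES for 19.2%, CP for 15.2% and CM for 32.3%. In the lateral plate and extraembryonic mesoderm list, the known field of HAND1, 5 of 11 genes with values were highest in MES, 2 in CP and 4 in CM. From MES to CP, 5 were at least 2-fold lower and 2 higher (all genes 3.91% and 8.91%), with a median difference of -0.57. Msx1 stood at 1.12, 89.2, 15.4 and 0.837 RPKM and Tbx3 at 15.8, 43.4, 7.85 and 0.981 RPKM, while Pmp22 (53.1 RPKM) and Tbx20 (59.2 RPKM) had their highest value in CM.

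In the second heart field list, the known field of HAND2, 5 of 11 genes were highest in MES, 4 in CP, 1 in ESC and 1 in CM. From MES to CP, 3 were higher and 3 lower (all genes 8.91% and 3.91%), with a median of 0.03. From CP to CM, 0 were higher and 8 lower (all genes 11.3% and 12.8%), with a median of -1.45. Mef2c stood at 0.0301, 1.83, 74.6 and 34.3 RPKM. Fgf8, a growth factor of this field, stood at 2.87, 16.3, 20.7 and 1.92 RPKM, Foxc1 at 0.289, 14.8, 12.2 and 3.82 RPKM, and Six2 at 0.212, 30.6, 3.46 and 0.0125 RPKM. The first heart field list, the field in which HAND1 is the better known, had 5 of 5 members at least 2-fold higher from MES to CP (8.91% of all genes), the direction of Hand2. The median difference was 2.93, or 4.23 with a pseudocount of 0.1 and 3.96 with each stage scaled to a common sum. In that list Hcn4, a pacemaker channel, stood at 0.791 and 33.6 RPKM, Tbx5 at 0.440 and 10.0 RPKM, Smarcd3 at 13.9 and 41.7 RPKM and Mab21l2 at 1.60 and 12.9 RPKM in MES and CP. The lists are short, and no share of them was tested against the background.

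**Figure D5:**
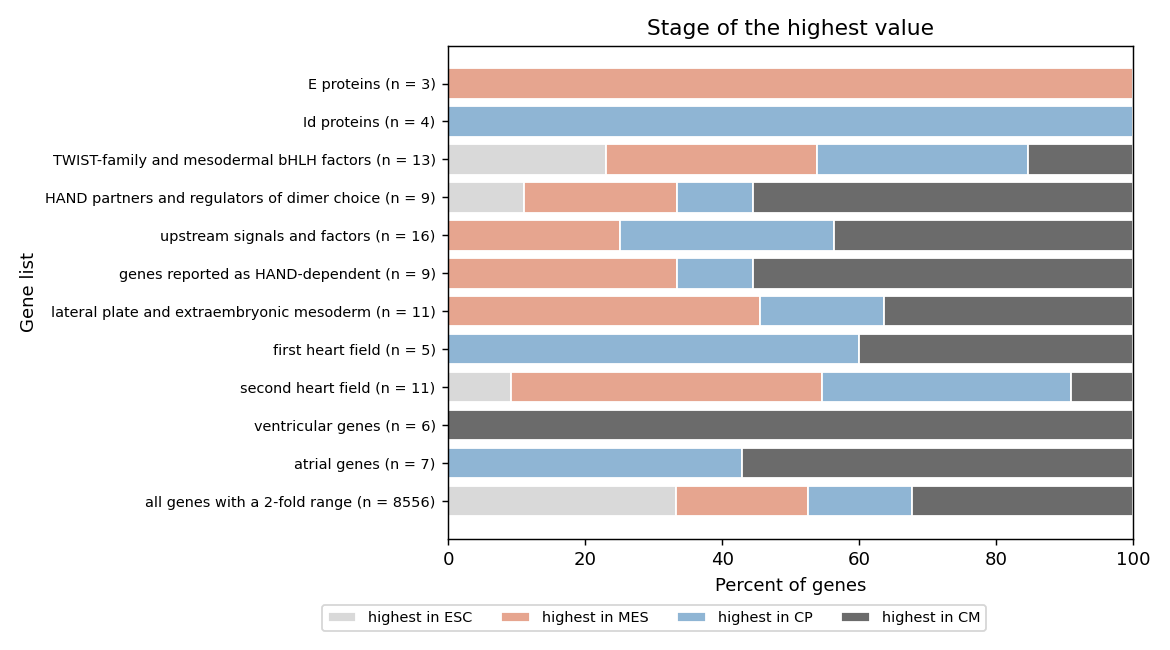
Percent of genes (x axis) whose highest value was in ESC, MES, CP or CM, for each gene list (y axis, with the number of genes measured) and for all genes with at least a 2-fold range. The lateral plate list has 5 of 11 genes highest in MES and the second heart field list 4 of 11 in CP.

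The ventricular genes were highest later than either HAND gene, though Irx4 and Hey2 only barely, while the atrial genes were split between stages. All 6 ventricular genes had their highest value in CM, among them Myl3 (88.9 RPKM in CP and 702 in CM), Hspb7 (11.0 and 247), Myl2 (7.03 and 113) and Pln (0.934 and 63.0). Irx4 and Hey2, the transcription factors on that list, stood at 5.58 and 8.88 RPKM in CP and 5.76 and 9.19 RPKM in CM. Each of them had a log2 difference of only 0.04 between these stages. From CP to CM, 4 of the 6 genes were at least 2-fold higher (11.3% of all genes). Of 7 atrial genes with values, 4 were highest in CM and 3 in CP, the highest stage of Hand2. Of all genes with at least a 2-fold range, 32.3% were highest in CM and 15.2% in CP. Myl7 went from 1196 RPKM (CP) to 3502 RPKM (CM), Myl4 from 50.9 to 257, Nr2f2 from 3.99 to 0.618, and Kcna5 from 2.88 to 1.94 RPKM.

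A set of 9 genes is known to depend on a HAND factor in heart or yolk sac or to be bound by one. They did not share 1 profile, with 3 highest in MES, 1 in CP and 5 in CM. Over all genes with at least a 2-fold range, these stages were the highest for 19.2%, 15.2% and 32.3%. Tbx3, Snai1 and Twist1 were highest in MES, as was Hand1, and Hapln1 was highest in CP, as was Hand2. Whether these genes depend on a HAND factor in these cells was not tested. Nppa, which encodes atrial natriuretic peptide, was at 0.239, 0.194, 0.232 and 693 RPKM. Its values before CM rest on few reads (at least 6, 4 and 5). Tmsb4x, thymosin beta 4, stood at 163, 40.6, 111 and 190 RPKM and was lowest in MES. Snai1, a factor of epithelial to mesenchymal transition, stood at 3.99, 94.1, 5.80 and 13.8 RPKM. Furin, a protease that processes secreted ligands, stood at 4.45, 7.87, 25.1 and 64.7 RPKM.

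Neighbouring genes were read by the same 3 steps. On the chromosome of Hand1 the nearest protein-coding genes with values were Sap30l, Galnt10 and Mfap3 on one side and Larp1, Cnot8 and Gemin5 on the other. Next to Hand1, Sap30l stood at 19.4, 35.7, 23.1 and 17.9 RPKM and Larp1 at 65.6, 61.0, 33.8 and 26.3 RPKM. Beside Hand2 lay Fbxo8, BC088983 and Hpgd on one side and Sap30, Hmgb2 and Galnt7 on the other. Fbxo8 stood at 4.49, 2.87, 3.38 and 6.94 RPKM and Sap30 at 60.3, 38.5, 33.3 and 24.1 RPKM. None of these 12 genes had the 3 steps of its neighbour. Only 0.377% of all genes had the Hand1 pattern and 0.421% that of Hand2, so this absence is near the background. Galnt10 and Galnt7, in places 2 and 3 on their sides of Hand1 and Hand2, were at least 2-fold higher from ESC to MES and lower from CP to CM. So were both HAND genes. Over all genes 11.1% were higher in the first of these steps and 12.8% lower in the other, and the share with both was not counted. Sap30l was, like Hand1, highest in MES, but its whole log2 range of 0.96 was under the 2-fold limit. The order of genes is that of RefSeq on GRCm38.p6.

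Other cell types that express a HAND gene or arise beside the cardiac cells were checked by their markers. For trophoblast, where HAND1 is abundant in the embryo, 5 of 12 markers had values, and their summed level was 33.1, 11.1, 8.26 and 3.51 RPKM. Of the ESC sum 23.9 RPKM was Tcfap2c alone. In MES, where Hand1 stood at 172 RPKM, Cdx2 was at 6.79 RPKM, Plac1 at 1.81, Tcfap2c at 1.31, Ascl2 at 0.764 and Krt7 at 0.403 RPKM, and the giant cell hormone genes were not analysed here. For neural crest and sympathetic neurons, 6 of 12 markers had values, with sums of 15.0, 7.35, 19.8 and 20.8 RPKM. In CP, where Hand2 stood at 199 RPKM, Snai2 led that set at 10.3 RPKM. For limb bud and pharyngeal arch, 3 of 8 had values, with sums of 4.35, 17.0, 10.5 and 4.21 RPKM. No measured marker of these 3 sets was listed at 0.

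Markers of blood and endothelium were, like Hand2, mostly highest in CP. The share highest in CP was 15.2% over all genes with at least a 2-fold range. All 8 blood markers were highest in CP, with sums of 1.79, 6.79, 283 and 10.9 RPKM, and Hbb-bh1 and Hba-x were listed at 0 in ESC and Hba-x also in MES. For endothelium and endocardium, 8 of 9 markers were highest in CP, with sums of 22.5, 68.6, 348 and 121 RPKM. Of the MES sum 63.2 RPKM was Kdr, which also marks early mesoderm. From ESC to MES 2 of the 9 were at least 2-fold higher and 3 lower (all genes 11.1% and 11.2%), with a median of -0.30. Smooth muscle markers, 6 of 6 with values, summed to 286, 20.1, 634 and 2485 RPKM. Most of the ESC and CM sums was Acta2 (131 and 1944 RPKM) and Tagln (134 and 408 RPKM). The other markers ranged in CM from 3.08 RPKM (Myh11) to 73.4 RPKM (Cnn1). Epicardial markers, 5 of 7 with values, summed to 2.58, 46.5, 17.5 and 9.50 RPKM. Of the MES sum 45.2 RPKM was Aldh1a2, a retinoic acid enzyme also known in early mesoderm, while Wt1 stood at 0.0417 RPKM, Upk3b at 0.0344 RPKM and Upk1b was listed at 0. From MES to CP 3 of the 5 were at least 2-fold higher and 1, Aldh1a2, was lower (all genes 8.91% and 3.91%). The median was 2.05, against -0.03 over all genes. The part of these cells in the Hand1 and Hand2 values was not tested.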

How the data were processed

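Per the labels' protocols, the 8 libraries were made from poly(A) RNA with PCR and read on a GAIIx instrument. Reads were aligned with Novoalign 2.07.00 to mm9, per the submitters' processing notes. Values are RPKM, 1 column per stage, per the file headers. How the authors counted reads, filtered genes and combined the 2 libraries of a stage is not given in the sources used here. A planned limma fit, leave-one-out and block need library columns and were not run. Depth ratios between stages were taken from repeated ratios of low values, and reads as the smallest whole numbers that give a gene's values (relative tolerance 5e-07). The true reads of a gene can be a whole multiple of these numbers. The method was also run on simulated reads. Separately, among 500 low genes of the deposited data, whole reads were found for 96.4%, against 0.4% with wrong depth ratios. The true reads of these genes are unknown, so this share is not an accuracy. Absolute depth is where depths implied by GENCODE M21 exon lengths piled up (25.2% of 10557 genes within 0.1%). Counting intervals of differences on the log2(RPKM + 1) scale combine the Poisson limits of both levels by square and add. Calculations used numpy 2.4.6, pandas 2.3.3 and scipy 1.17.1. Members, lists and rules were chosen with earlier results of these data known. Every member is named of lists with up to 6 genes, otherwise the 6 with the highest maximum, plus the 6 nearest profiles and 3 neighbours on each side. Symbols were matched by gene ID where the table uses an older one. Alternatives were pseudocounts of 0.1 and 0.5, a 4-fold minimum, a minimum of 3 RPKM, scaling to a sum of 1000000 and quantile normalization. RefSeq held an upstream sequence for Hand2.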

Additional observations from a re-analysis of the deposited data

How the results depend on the processing

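No paired analysis was possible because the table has no columns for single libraries, and for the same reason no replicate could be left out. Over 56 alternatives to 16 values (12 differences of the HAND genes and 4 ratios), no direction changed; 25 stayed within the counting interval of the value and 31 moved beyond it. With a pseudocount of 0.1, differences from ESC were 6.37, 4.99 and 3.86 for Hand1 (MES, CP, CM) and 7.54, 10.2 and 7.90 for Hand2, and with 0.5 they were 6.12, 4.74 and 3.63 for Hand1 and 5.79, 8.46 and 6.14 for Hand2. Scaled to a common sum they were 6.32, 5.02 and 3.79 for Hand1 and 6.61, 9.38 and 6.94 for Hand2. That scaling gave Hand1 -1.30 (CP minus MES), -2.53 (CM minus MES) and -1.23 (CM minus CP), and Hand2 2.76 (CP minus MES) and -2.44 (CM minus CP). Quantile normalization gave Hand1 -1.31 (CP minus MES), and Hand2 7.71 (CP minus ESC), 5.35 (CM minus ESC), 2.86 (CP minus MES), 0.51 (CM minus MES) and -2.35 (CM minus CP). The Hand2 to Hand1 ratio in ESC, 0.0331, became 0.358 and 0.0796 with pseudocounts of 1 and 0.1. The scaling moved the median of all genes by 0.14 (CP minus ESC) and -0.14 (CM minus CP). Counts over all genes moved by more than 1.5 times in the cases named next, and by less in the other settings. From ESC to MES, 1498 higher became 2273 (pseudocount 0.1) and 376 (4-fold), and 1519 lower became 470 (4-fold). From MES to CP, 1207 higher became 1889 (0.1), 1818 (scaled) and 371 (4-fold), and 529 lower 942 (0.1) and 118 (4-fold). From CP to CM, 1524 higher became 437 and 1729 lower 320 (4-fold), or 2686 (0.1) and 2799 (scaled). The share of calls that were higher from CP to CM, 46.8%, was 57.7% at 4-fold, 51.8% with quantile normalization, 41.9% with a pseudocount of 0.1 and 37.4% when scaled. Of 66 list counts, 28 moved by over 1.5 times at 4-fold, 5 with a pseudocount of 0.1 and 4 when scaled. Of 33 list medians, 9 moved by over 1.5 times with a pseudocount of 0.1 and 8 when scaled, and 0 changed sign. Of the HAND values Hand2 in ESC rests on the fewest reads, 11. By the smallest whole numbers, some values of other genes rest on fewer, such as Six2 in CM on 2 and Mef2c in ESC on 6. Their true reads may be a multiple of these.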
